A study of Rattus norvegicus with 15 samples.

Results

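The 9 genes described here encode the filament proteins of the cytoplasm and of the nuclear lamina in rat testis: vimentin (Vim), desmin (Des), nestin (Nes), the keratins Krt8, Krt18 and Krt19, and the lamins Lmna, Lmnb1 and Lmnb2. They were chosen by name, and every probe set whose only annotated gene symbol was one of these names was taken. That gave 12 probe sets for the 9 genes, of 14217 genes with at least 1 such probe set on the array. The study measured RNA of testes from LBNF1 rats (a hybrid strain) aged 25 to 27 weeks on Affymetrix expression arrays, which read 1 signal per probe set of short oligonucleotides. The control group held 10 arrays from testes taken before irradiation. The irradiated group held 5 arrays from testes of rats that received 6 Gy to the lower abdomen, and the sources used here do not give the interval from irradiation to collection. No transgene, deletion or further agent is named for either group. Samples are labelled as biological replicates without naming the animals, so the spread that p-values rest on may be technical in part.

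Intermediate filaments are rope-like polymers whose protein differs by cell type, and their genes are classical markers of cell identity. In the adult testis, vimentin surrounds the nucleus of Sertoli cells and is also made by Leydig, endothelial and other mesenchymal cells, desmin belongs to the peritubular myoid cells and vascular muscle, and nestin to some vascular and interstitial cells. Keratins form filaments only as pairs of an acidic and a basic chain, as Krt18 with Krt8, and Krt8, Krt18 and Krt19 are typical of simple epithelia. Lamins line the inner nuclear membrane. Lmna gives lamins A and C and, in meiotic cells, the short lamin C2. Lmnb1 encodes lamin B1, and Lmnb2 gives lamin B2 and, in spermatids, lamin B3.

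The sequences just upstream of the start sites are shown for the 5 genes on which the results turn, the risers Vim, Des, Nes and Lmna and the faller Lmnb2. Each is the 200 bases before the annotated start in the RefSeq annotation of GRCr8, 5′ to 3′ on the gene's own strand, with capitals marking a match to one of 6 promoter motifs on either strand.
Vim, chr17:81577061-81577260, plus strand: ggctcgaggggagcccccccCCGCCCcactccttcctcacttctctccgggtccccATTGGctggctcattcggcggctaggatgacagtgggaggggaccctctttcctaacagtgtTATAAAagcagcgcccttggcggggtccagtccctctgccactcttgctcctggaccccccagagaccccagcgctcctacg
Des, chr9:84299426-84299625, plus strand: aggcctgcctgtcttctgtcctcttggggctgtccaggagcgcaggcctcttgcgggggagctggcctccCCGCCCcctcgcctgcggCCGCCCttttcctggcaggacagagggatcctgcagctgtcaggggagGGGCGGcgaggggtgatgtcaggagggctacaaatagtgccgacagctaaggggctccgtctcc
Nes, chr2:175736388-175736587, plus strand: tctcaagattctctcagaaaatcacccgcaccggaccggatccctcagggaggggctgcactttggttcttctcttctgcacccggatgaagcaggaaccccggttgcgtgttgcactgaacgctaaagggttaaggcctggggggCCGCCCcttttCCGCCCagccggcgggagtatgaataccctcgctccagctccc
Lmna, chr2:176258236-176258435, minus strand: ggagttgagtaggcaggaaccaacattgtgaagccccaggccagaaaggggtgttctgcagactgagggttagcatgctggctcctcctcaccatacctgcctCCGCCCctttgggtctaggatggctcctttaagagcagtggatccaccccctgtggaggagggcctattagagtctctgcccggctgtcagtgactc
Lmnb2, chr7:9443108-9443307, plus strand: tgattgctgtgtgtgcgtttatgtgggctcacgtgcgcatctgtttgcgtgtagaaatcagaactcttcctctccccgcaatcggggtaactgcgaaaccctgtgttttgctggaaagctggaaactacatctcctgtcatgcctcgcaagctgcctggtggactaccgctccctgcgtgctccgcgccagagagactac
The core promoter element of many regulated genes was searched as TATAAA. The site of the factor NF-Y was searched as CCAAT, and the site of Sp1, called the GC box, as GGGCGG. The site of the factor AP-1 was searched as TGANTCA. The other motifs were the cyclic AMP response element in its palindromic form and the CArG box of serum response factor, and no 2 matches overlapped in the sequences shown. Of the 9 genes, 8 had an entry in the promoter table (all but Krt19). The GC box was present in 5 of these 8 windows (Nes, Lmna, Krt18, Des and Vim) and in 28.6% of the 33469 windows of all RefSeq genes. The 8 windows held 55% to 73.5% G and C, against a median of 52% over all windows. The GC box share was not adjusted for this. TATAAA was found in those of Vim and Krt8 (10.4% of all windows), and CCAAT in those of Vim and Lmnb1 (29.2%). AP-1 sites, cyclic AMP response elements and CArG boxes were found in 0 of the 8, against 4.97%, 1.46% and 1.16% of all windows. The Lmnb2 window held none of the 6 motifs. A match describes letters in a window and not a site in use.

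A probe set was tested if its log2 signal reached the median of its array in at least 5 of the 15 arrays, and it counted as changed at an adjusted p under 0.05 (limma, Benjamini-Hochberg over all 18711 probe sets tested). A signal below its array's median is called dim here, and where a whole group was dim only a bound on the fold is given, with each dim signal set to its array's median. The signals are relative log2 units, so levels of different probe sets are not compared. Most of the transcriptome differed between the groups: 83.4% of tested probe sets passed. The groups differed in cell markers. Of 9 spermatid genes on the array, 0 lay below the array median in all control arrays and 6 did so in all irradiated arrays, and of 7 spermatocyte genes 0 and 7. Of 11 tested genes of Sertoli cells 10 rose (median log2 change 2.27) and of 7 Leydig cell genes 7 did (3.11), while the median of all tested genes was 0.20. In whole testis, fewer cells of a type and less RNA per cell cannot be told apart. Centring the arrays on the Sertoli cell list, one of 3 other scalings tried, moved the median of all tested genes to -1.96, and signs that turn with it are named below.

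Of the 12 probe sets, 9 passed the filter, and they stood for 7 of the 9 genes. All 9 tested probe sets passed the threshold (limma), 7 higher and 2 lower in irradiated testes, beside 83.4% of all tested probe sets in either direction (49% higher, 34.3% lower). Nes (1386948_at) and 1 Lmna probe set (1368054_at) passed the filter only through the irradiated arrays, and 1 Lmnb1 probe set (1368811_at) only through the control arrays, so these counts support nothing about the genes as a group. Groups did not overlap in 7 of the 9 (5 higher, 2 lower), against 65.5% of all tested probe sets (41.3% higher, 24.2% lower). The 3 probe sets that were not tested, those of Krt8 and Krt18 and 1 of Lmnb1 (1368812_at), lay below the array median in all 15 arrays.

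**Figure D1:**
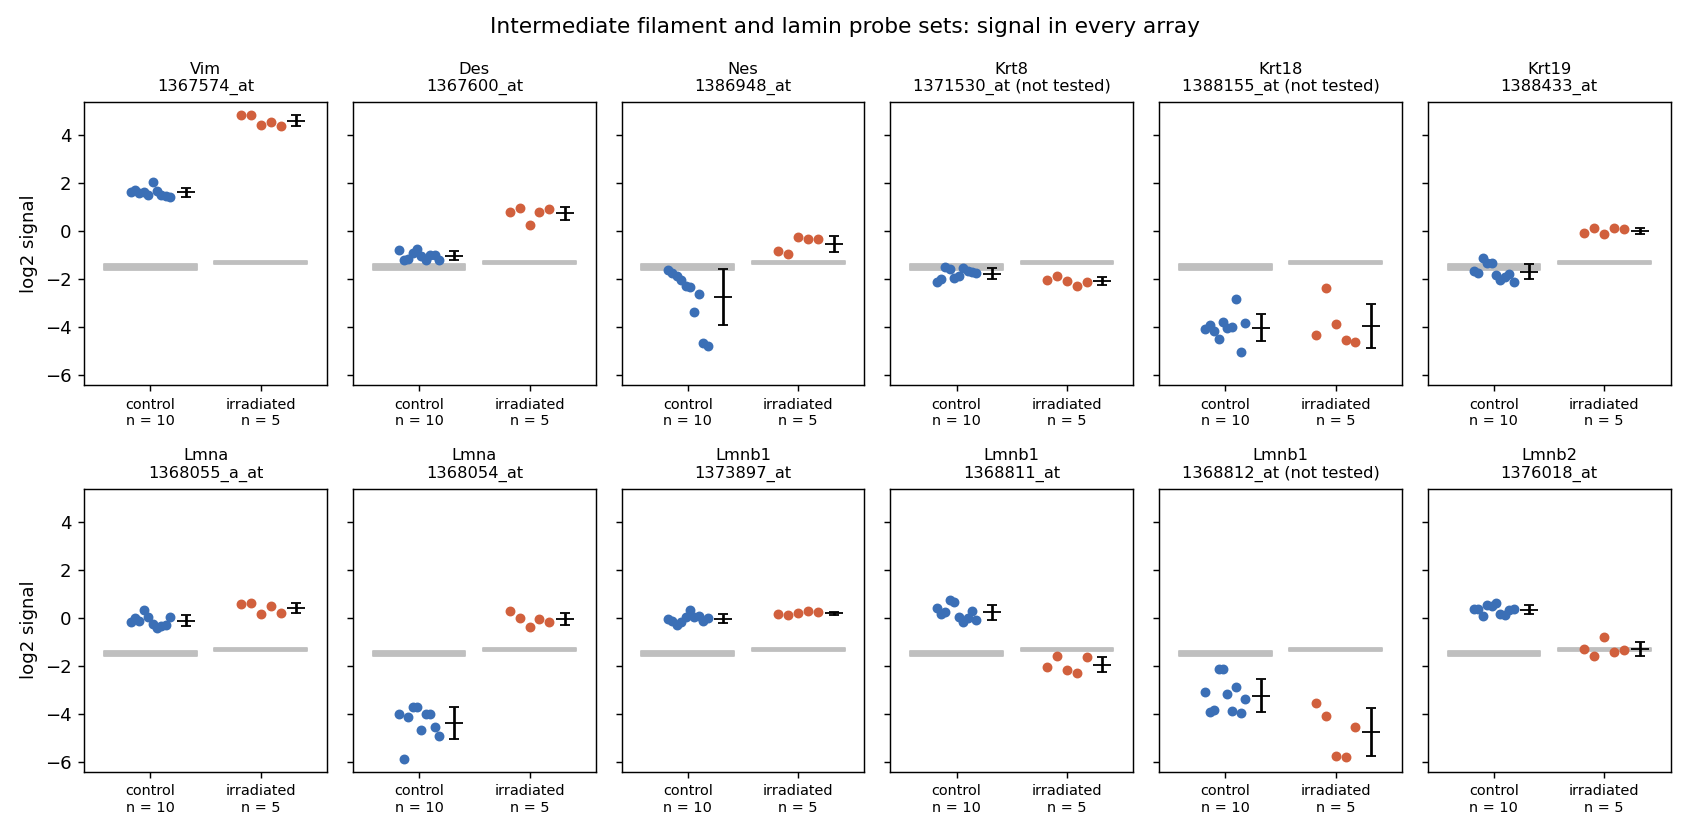
The log2 signal of each of the 12 probe sets in the 10 control (blue) and 5 irradiated (orange) arrays, with the mean and SD of each group beside the points and a grey band for the range of the array medians. The groups do not overlap for Vim, Des, Nes, Krt19, Lmna 1368054_at, Lmnb1 1368811_at and Lmnb2, and the 3 probe sets marked as not tested lie below their own array's median in every array.

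Vimentin, the filament protein of Sertoli and mesenchymal cells, rose in irradiated testes. In control testes its log2 signal (1367574_at) ran from 1.43 to 2.04 with a median of 1.60. The irradiated arrays gave 4.85, 4.85, 4.42, 4.55 and 4.38 in replicates 1 to 5. Every irradiated array lay above the highest control array, which was control replicate 6. The change was 2.99 ± 0.11 (SE, adjusted p = 1.86e-13, limma), 7.97-fold, and it exceeded that of 94.8% of the tested probe sets. On the Sertoli-centred scale the change was 0.84 (adjusted p = 3.50e-05). The summed signal of the 13 Sertoli markers on the array moved in the same direction, from a range of 4.62 to 5.18 in control arrays to 6.75 to 7.24 in irradiated arrays. Macrophages also make vimentin, and their markers rose in 7 of 7 genes (median 3.55, or 2.12 with dim signals set to the array median), with a summed signal of 1.16 to 1.66 in control and 4.03 to 4.20 in irradiated arrays. The part of these cell types in the vimentin signal was not tested.

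Desmin, the muscle-type filament protein, also rose, by 1.76 ± 0.12 (SE, adjusted p = 3.98e-10, limma), which is 3.39-fold. Its log2 signal (1367600_at) lay between -1.21 and -0.74 in control arrays, with a median of -1.03. In irradiated replicates 1 to 5 it was 0.79, 0.95, 0.27, 0.78 and 0.91. Replicate 3 was the lowest irradiated array and still lay above all 10 controls. The sign turned on the Sertoli-centred scale, to -0.40 (adjusted p = 0.00611). Peritubular myoid and smooth muscle markers rose in 9 of 10 tested genes (median 1.62, or 1.26 with dim signals set to the array median), and their summed log2 signal went from 3.35 to 3.74 in control arrays to 5.12 to 5.47 in irradiated arrays. Skeletal muscle, which also makes desmin, was marked by 7 genes on the array, with Acta1 and Myh4 below the median in all 15 arrays, Myog above it in all 15, and a summed signal of 1.07 to 1.60 in control and 0.83 to 1.03 in irradiated arrays. Of the 4 tested, Tnni2 rose by 1.56 as measured (0.22 with dim signals set to the array median), Myog fell by 0.44 on the log2 scale, Ckm was at least 1.88-fold lower and Casq1 did not pass. The part of either muscle in the desmin signal was not tested.

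Nestin, a large filament protein that copolymerises with vimentin or desmin, was below the array median in every control array and above it in every irradiated array. Control signals (1386948_at) spread from -4.81 to -1.61 with a median of -2.30, wider than those of any other tested probe set of the 9 genes. They ran from -2.28 to -1.61 in control replicates 1 to 5 and from -4.81 to -2.32 in control replicates 6 to 10. Irradiated replicates 1 to 5 read -0.82, -0.94, -0.24, -0.34 and -0.33. Nestin was at least 1.91-fold higher in irradiated testes (adjusted p = 0.000563, limma). On the Sertoli-centred scale its measured change was 0.05 (adjusted p = 0.926), and -1.23 with dim signals set to the array median. Endothelial markers rose in 7 of 8 tested genes (median 1.92, or 0.63 with dim signals set to the array median), with 3 of the 8 below the median in every control array, and their summed signal went from 1.04 to 1.42 in control arrays to 2.53 to 2.70 in irradiated arrays. Of 3 nerve and Schwann cell markers, Sox10 was below the median in all 15 arrays and S100b rose by 2.49. Mbp, not tested, went the other way, at or above the median in 4 control arrays and in 0 irradiated arrays. Their summed signal was -0.14 to 0.59 in control and 2.05 to 2.20 in irradiated arrays, where S100b alone had a mean of 2.06. The part of either cell type in the nestin signal was not tested.

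Of the 3 keratins, only Krt19 passed the filter. Krt19, an acidic keratin, rose by 1.71 ± 0.15 (SE, adjusted p = 1.21e-08, limma). Its control signals (1388433_at) ran from -2.11 to -1.13 (median -1.76), at or above the array median in 3 of 10 arrays. In irradiated replicates 1 to 5 the signal was -0.09, 0.12, -0.14, 0.11 and 0.07, above every control array. Since most control signals lay below the array median, the change was at least 1.43 with each array taken at no less than its median. On the Sertoli-centred scale the sign turned, to -0.45 (adjusted p = 0.00561).

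Krt8 and Krt18, the basic and acidic partners of simple epithelium, gave no level above the array median in either group. For Krt8 (1371530_at) the control signals lay between -2.11 and -1.49, and the irradiated ones were -2.05, -1.87, -2.07, -2.30 and -2.15. For Krt18 (1388155_at) they lay between -5.03 and -2.83 in control arrays and were -4.33, -2.37, -3.89, -4.55 and -4.64 in irradiated replicates 1 to 5. The groups overlapped for both. Without the filter, Krt8 changed by -0.31 (adjusted p = 0.0272, limma) and Krt18 by 0.07 (adjusted p = 0.879, limma). Of 9 epididymal and rete epithelium markers on the array, Cdh1, Pax2, Cldn3, Cldn4 and Krt7 were likewise below the median in all 15 arrays, and in irradiated arrays Epcam, the 1 tested, was at least 4.94-fold lower. The summed signal of the 9 ran from 1.37 to 2.14 in control arrays and from 0.04 to 0.50 in irradiated arrays. Their part in the Krt19 signal was not tested.

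Both Lmna probe sets, which read the A-type lamins, were higher in irradiated testes, by very different amounts. Probe set 1368055_a_at, the one with the higher mean, read between -0.43 and 0.32 in control arrays (median -0.16) and 0.59, 0.62, 0.16, 0.47 and 0.20 in irradiated replicates 1 to 5. Its groups overlapped, and the change was 0.53 ± 0.12 (SE, adjusted p = 0.000855, limma), 1.44-fold. After quantile normalization it was 0.15 and did not pass (adjusted p = 0.217), and on the Sertoli-centred scale the sign turned, to -1.63. Probe set 1368054_at read between -5.89 and -3.72 in control arrays (median -4.09), below the array median in all 10. In irradiated replicates 1 to 5 it read 0.30, -0.01, -0.39, -0.03 and -0.16, above the array median in all 5. It was at least 2.65-fold higher (adjusted p = 3.93e-10, limma), while on the Sertoli-centred scale, with dim signals set to the array median, the change was -0.75, so that no rise is shown there. Which Lmna transcripts each probe set reads was not tested.

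The B-type lamins fell in 2 probe sets, and the third tested one did not follow. Lmnb2 (1376018_at) read between 0.08 and 0.62 in control arrays, with a median of 0.36. Irradiated replicates 1 to 5 read -1.30, -1.61, -0.81, -1.43 and -1.34, all below every control array. Lmnb2 fell by 1.64 ± 0.12 on the log2 scale (SE, adjusted p = 2.16e-09, limma). As 4 of the 5 irradiated signals lay below the array median, the change was -1.56 with each array taken at no less than its median.

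Lmnb1 was read by 3 probe sets that disagreed. Probe set 1368811_at read between -0.16 and 0.73 in control arrays (median 0.21) and -2.05, -1.61, -2.18, -2.29 and -1.62 in irradiated replicates 1 to 5, where every signal lay below the array median. By it Lmnb1 was at least 2.90-fold lower (adjusted p = 1.58e-09, limma). Probe set 1373897_at, which has the highest mean of the 3, read between -0.29 and 0.34 in control arrays (median -0.04) and 0.18, 0.10, 0.18, 0.27 and 0.24 in irradiated replicates 1 to 5, inside the control range. Its change was 0.23 ± 0.09 (SE, adjusted p = 0.0299, limma). That call was lost with arrays centred on their median (0.07, adjusted p = 0.493) or without irradiated replicate 4 or 5 (adjusted p = 0.0707 and 0.0631), and the sign turned after quantile normalization (-0.15, adjusted p = 0.162) and on the Sertoli-centred scale (-1.93). The dim probe set 1368812_at read between -3.96 and -2.13 in control and between -5.81 and -3.56 in irradiated arrays. Without the filter it changed by -1.51 (adjusted p = 0.0043, limma), in the direction of 1368811_at. As the probe set of highest mean did not fall on the deposited scale, no direction can be given for Lmnb1 as a gene. Beside the falls of Lmnb2 and of Lmnb1 by 1368811_at stand those of the germ cell markers: 6 of 6 tested spermatocyte genes and 9 of 9 spermatid genes fell, with medians of -4.56 and -6.69 once dim signals were set to the array median. Of 3 tested spermatogonial genes, Kit was at least 3.45-fold higher, Gfra1 at least 2.25-fold lower and Uchl1 did not pass. The other tested Gfra1 probe set changed by -0.27 and did not pass (adjusted p = 0.088, limma). The part of germ cells in the lamin signals was not tested.

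**Figure D2:**
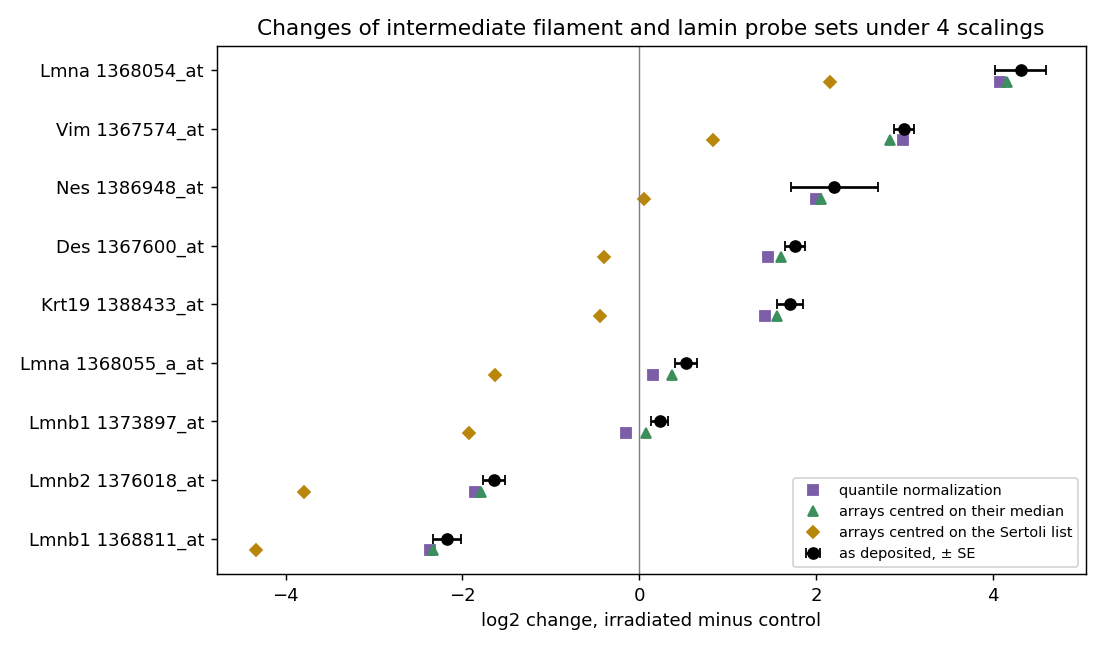
The log2 change (irradiated minus control, limma) of the 9 tested probe sets, with black points and SE bars for the values as deposited and coloured marks for 3 other scalings of the arrays. Vim stays above 0 and Lmnb2 and Lmnb1 1368811_at stay below 0 under all 4 scalings. The measured mark of Lmna 1368054_at lies above 0 too, but with its dim control signals set to the array median it is -0.75 on the Sertoli-centred scale, and Des, Krt19, Lmna 1368055_a_at and Lmnb1 1373897_at turn below 0 on the Sertoli-centred scale, the last also after quantile normalization.

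To ask whether 2 genes changed unequally, their difference was taken within each array, which removes any constant shift of an array. Of 12 such contrasts planned, 3 involved Krt8 or Krt18 and were not tested. The other 9 were tested by exact permutation of the 15 arrays (2-sided, smallest possible p 0.000333, adjusted over the 9), with each gene read by its probe set of highest mean, and 6 passed. Vim rose more than Des: the difference was 2.64 ± 0.26 (SD, n = 10) in control and 3.87 ± 0.27 (SD, n = 5) in irradiated arrays, which is 1.23 apart (exact permutation, adjusted p = 0.000749). It also rose more than the median of the Sertoli cell list, by 0.84 (exact permutation, adjusted p = 0.0012), although the groups overlapped. Des rose less than the median of the myoid list, by a difference of -0.47 (exact permutation, adjusted p = 0.00749), again with overlapping groups.

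Relative to the Sertoli cell list, the probe set of highest mean fell for both Lmna and Lmnb1, and Lmnb2 was not set against it. Lmna by 1368055_a_at changed by -1.63 relative to the median of the Sertoli cell list, and Lmnb1 by 1373897_at by -1.93 (exact permutation, adjusted p = 0.000749 for each), with no overlap of the groups. The median of all tested genes on the Sertoli-centred scale was -1.96, so neither probe set fell more than the median gene there. By probe set 1368054_at, added after the probe sets were seen to disagree, the measured Lmna contrast was 2.15, but with dim signals set to the array median it was -0.75, so that probe set gives no direction here. Between the B-type lamins, Lmnb1 minus Lmnb2 was -0.37 ± 0.19 (SD, n = 10) in control and 1.49 ± 0.30 (SD, n = 5) in irradiated arrays, a rise of 1.87 (exact permutation, adjusted p = 0.000749). By Lmnb1 probe set 1368811_at the measured contrast was -0.54 (exact permutation, adjusted p = 0.024), but that probe set was dim in all irradiated arrays and Lmnb2 in 4 of 5, so the rise rests on the probe set chosen. The remaining contrasts did not pass: Vim minus Nes (0.79, exact permutation, adjusted p = 0.178), Lmna minus Lmnb1 (0.30, exact permutation, adjusted p = 0.128) and Nes minus the endothelial list (0.69, exact permutation, adjusted p = 0.206). Vim minus Nes, with an SD of 1.10 among control arrays where Nes was dim, did pass at 1.99 with a pseudocount of 0.5 (exact permutation, adjusted p = 0.0005) and at 2.06 with dim signals set to the array median (exact permutation, adjusted p = 0.000599). Lmna minus Lmnb1 passed without control replicate 4 (0.36, exact permutation, adjusted p = 0.043). It also passed with larger measured values that include dim signals: 2.71 with Lmnb1 1368811_at, 4.08 with Lmna 1368054_at and 3.57 by the mean of all probe sets (exact permutation, adjusted p = 0.000749, 0.000599 and 0.000999).

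**Figure D3:**
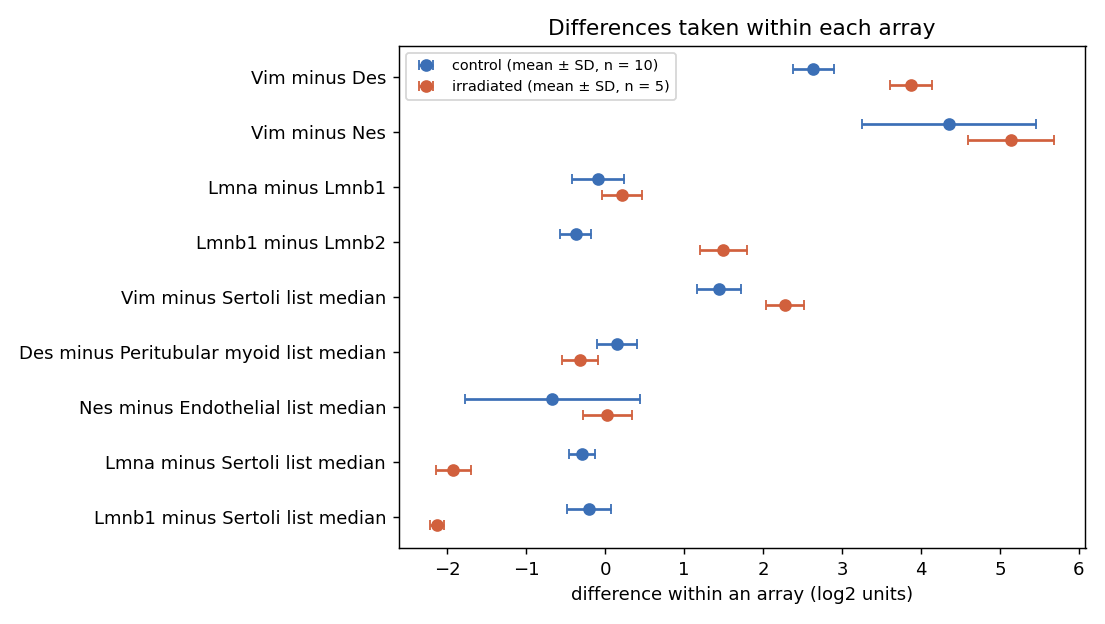
Mean and SD, in log2 units, of 9 differences taken within each array, in 10 control (blue) and 5 irradiated (orange) arrays. Lmnb1 and Lmna, each by the probe set of highest mean, fall relative to the Sertoli cell list (-1.93 and -1.63) and Lmnb1 rises relative to Lmnb2 (1.87). The median of all tested genes on the Sertoli-centred scale is -1.96. By the mean of all probe sets of a gene, Lmna relative to the Sertoli list is 0.26 and Lmnb1 relative to Lmnb2 is 0.49.

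Most other intermediate filament genes were dim in at least 1 group. Of 42 listed, 28 were on the array, 11 of them below the median in all 15 arrays, and 13 were tested. Among those, 2 rose, 8 fell and 3 did not pass, with a median change of -0.63 beside 0.20 for all genes tested. On the Sertoli-centred scale 0 were higher and 13 lower, beside 1514 and 15246 of all 18711 tested probe sets. Of the 8 that fell, 6 were dim in every irradiated array and so passed the filter only through the control arrays, and with dim signals set to the array median the list's median was -0.15. Over all genes tested, 85.5% passed, 47.6% higher and 37.9% lower. Synemin (Synm), which builds into desmin and vimentin filaments, rose from -0.27 ± 0.15 (SD, n = 10) to 1.52 ± 0.16 (SD, n = 5), by 1.79 ± 0.09 (SE, adjusted p = 1.80e-11, limma). Gfap, the glial filament protein, changed by 0.28 (adjusted p = 0.0302). The keratins Krt25 and Krt4 were at least 1.13-fold and at least 1.43-fold lower, both dim in all 5 irradiated arrays. Krt5, Krt17 and Krt86, named after their values were seen, did not pass (-0.01, 0.52 and -0.15).

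Of 13 tested genes that tie filaments to junctions and to each other (18 listed), 8 rose, 2 fell and 3 did not pass. Over all genes tested, 47.6% were higher and 37.9% lower. The list's median change was 0.90, or 0.68 with dim signals set to the array median, beside 0.20 measured for all genes tested. On the Sertoli-centred scale 2 were higher and 11 lower, beside 1514 and 15246 of all 18711 tested probe sets. Desmoglein 2 (Dsg2), a desmosomal cadherin, was at least 8.66-fold higher, and periplakin (Ppl), a linker of keratin and vimentin to membranes, rose by at least 2.46. Trichoplein (Tchp), a keratin-binding protein of the centriole, fell by 3.97 ± 0.08 on the log2 scale (SE, adjusted p = 1.90e-16, limma) and by 3.57 in its other tested probe set. The small heat shock protein gene Hspb1 fell by 0.59. Plectin (Plec), the cytoskeletal cross-linker, Evpl and Eppk1, named after their values were seen, did not pass (-0.18, -0.31 and -0.27), the last pair dim in all 5 irradiated arrays. Dst rose by 1.68 in its probe set of highest mean, while its 2 other tested probe sets changed by -0.54 and -1.64.

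Among 21 tested genes of the inner nuclear membrane, lamina binding and lamin processing (23 listed), 12 rose, 6 fell and 3 did not pass. Over all genes tested, 47.6% were higher and 37.9% lower. The list's median change was 0.91, or 0.86 with dim signals set to the array median, beside 0.20 measured for all genes tested. On the Sertoli-centred scale 2 were higher and 17 lower, beside 1514 and 15246 of all 18711 tested probe sets. Tmem43, an inner membrane protein that binds lamins and emerin, rose from -0.14 to 2.63, by 2.77 ± 0.13 (SE, adjusted p = 3.90e-12, limma). Zmpste24, the protease that matures prelamin A, rose by 2.61 ± 0.17 (SE, adjusted p = 2.65e-10). Icmt, which methylates the prenylated end of lamins, fell by 1.52 ± 0.13 on the log2 scale (SE, adjusted p = 6.85e-09). Syne3, encoding nesprin-3, was at least 1.07-fold lower. Syne1, encoding nesprin-1, changed by -0.60 in its probe set of highest mean and by 0.93 in its other tested one. Sun1, Nup153 and Rce1, named after their values were seen, did not pass (-0.12, 0.21 and 0.07). Of the spermatid nuclear envelope list, 3 of 7 genes were on the array. Spag4 and Spata46, of the spermatid envelope, were at least 24.3-fold and at least 10.1-fold lower, and Syne4, whose product nesprin-4 is known from secretory epithelia, was at least 3.46-fold higher, a call lost on the Sertoli-centred scale, where 0 genes of this list were higher.

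**Figure D4:**
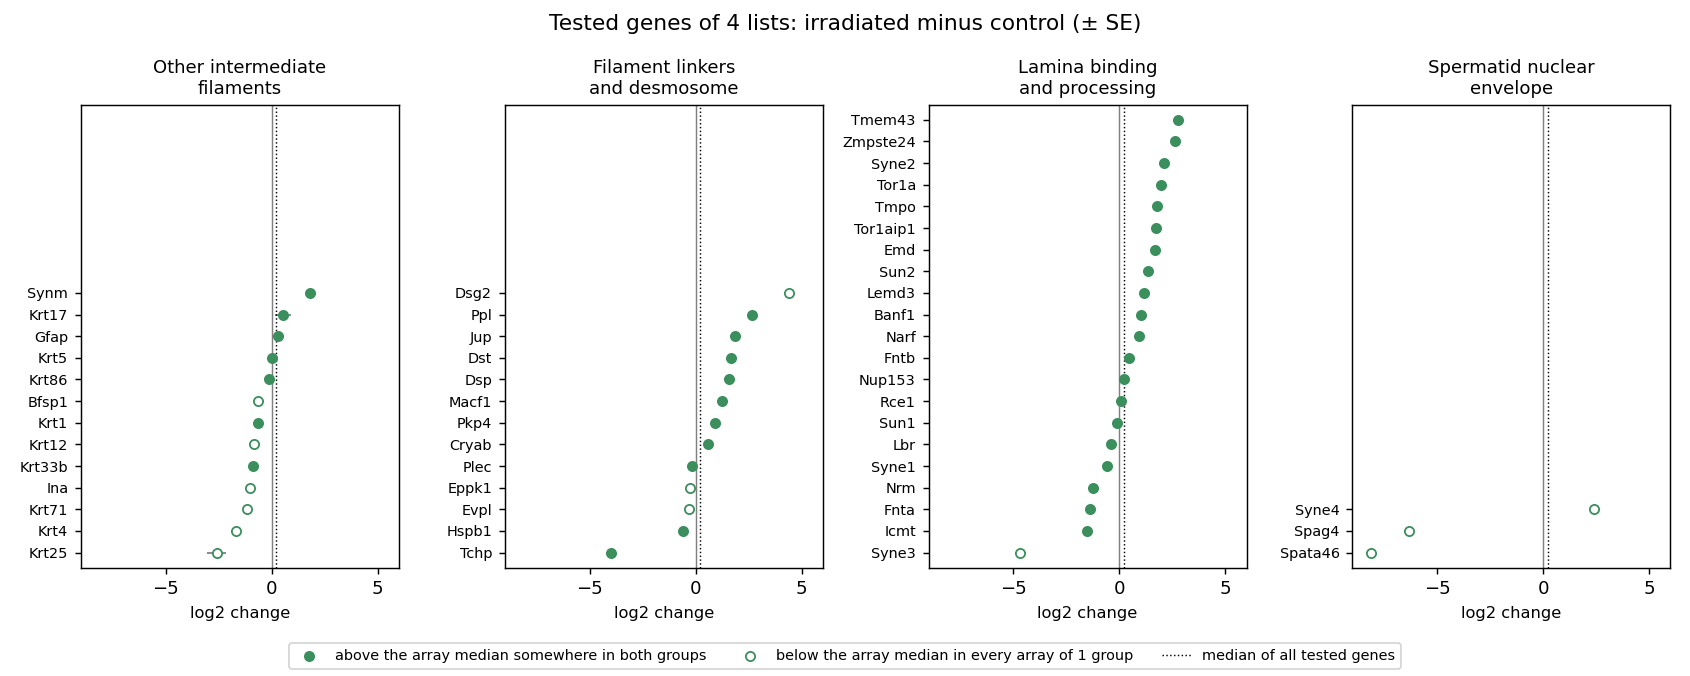
The log2 change (irradiated minus control, limma) with its SE of every tested gene of 4 lists, with open points for genes below the array median in every array of 1 group and a dotted line at the median of all tested genes (0.20). Most lamina genes lie right of the line, up to 2.77 for Tmem43, and Spag4, Spata46, Syne3 and Tchp lie far left of it. Syne3 was dim in every irradiated array, and with dim signals set to the array median its change was only -0.25. On the Sertoli-centred scale 2 lamina genes were higher and 17 lower, beside 1514 and 15246 of all 18711 tested probe sets.

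The genes whose pattern lay closest to each of the 7 tested ones were taken by the Pearson correlation of deviations from the group means over the 15 arrays, among 6281 genes at or above the array median in all of them. The 2 closest were Mrpl47 (0.93) and Hip1 (0.86) for Vim, U2af1l4 (0.78) and Pet100 (0.74) for Des, Pfdn4 (0.87) and Actr6 (0.84) for Nes, and Ccdc47 (0.92) and Eif4a2 (0.88) for Krt19. For the lamins they were Hdlbp (0.93) and Bad (0.90) for Lmna, Atxn3 (0.91) and Dpt (0.82) for Lmnb1, and Blzf1 (0.75) and Rhd (0.75) for Lmnb2. These are descriptions of 15 arrays that share array-wide effects. The 10 control signals of Nes were dim, so its 2 genes rest largely on such signals. Of the 14 genes, 10 passed the threshold between groups (limma), beside 85.5% of all tested genes, so this count sets them apart in no way. Of the 10, 6 changed the same way as the filament or lamin probe set and 4 the other way. Among the 4 was Mrpl47, which fell by 1.83 on the log2 scale. Among the 6 was Dpt, set against Lmnb1 1373897_at, although no direction can be given for Lmnb1 as a gene.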

How the data were processed

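Gene expression was measured on 15 arrays, 10 from control and 5 from irradiated rat testes. The authors deposited log2 signals made with MAS5, as the submitters' processing notes name it without a version. How these log2 values were scaled, and their zero point, are not given in the sources used here. They were used as deposited, and 0 columns were left unused. Arrays have no read depth, so their number limits the precision. Gene names came from GEO's platform table of 2016, in which 20826 probe sets had 1 gene symbol, 436 several and 9780 none, and the 57 control probe sets were left out.

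The group difference was fitted per probe set in limma 3.58.1 (R 4.3.3, functions lmFit and eBayes, 2-sided, no covariate), tested on simulated data. Every adjusted p not named as a permutation is from this fit. The filter kept 18711 probe sets and 10841 genes. A gene was read by its tested probe set of highest mean. Dim means below the array median throughout a group, where only a bound is given. There "at least N-fold" divides the bright group's mean by the dim group's, each dim signal raised to its array's median. Summed signals are log2 of summed linear signals. The genes, lists and tests were chosen with earlier results of these data known. Named were all 9 genes and, of each list, the 2 largest rises and falls past the threshold by measured change. Alternatives were 3 scalings, 2 filters, a pseudocount, another variance model, arrays left out, a replicate block and other probe sets.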

Additional observations from a re-analysis of the deposited data

Results flagged for a closer look

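Single arrays stood apart from their group in 5 of the 42 groups of values examined, where the gap to the nearest other array was larger than Dixon's 95% limit allows. Chance gives about 1 in 20 such groups. Vim in control replicate 6 was 2.04 against 1.70 in the next array. Des in irradiated replicate 3 was 0.27 against 0.78. Vim minus the median of the Sertoli cell list was 2.13 in control replicate 6, against 1.56, and Lmnb1 (1373897_at) minus the same median was 0.44 there, against -0.09. In irradiated replicate 1 the latter difference was -2.28, against -2.11. Signals from the 3' end of actin exceeded those from its 5' end, which tracks RNA quality, by 1.89, 1.37 and 1.44 in control replicates 6, 7 and 8, above the 0.90 to 1.16 of the irradiated arrays, while the 10 control arrays had a median of 0.80. These 3 arrays also stood apart from the other control arrays on the second principal component. Their part in these values was not tested. Without all 3, the Vim change was 3.05.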

How the results depend on the processing

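Of the alternatives tried, centring arrays on the Sertoli cell list moved most values. It gave 1514 probe sets higher and 15246 lower, with 2 and 6 of the filament and lamin probe sets, and it turned Des to -0.40, Krt19 to -0.45, Lmna 1368055_a_at to -1.63 and Lmnb1 1373897_at to -1.93, with Nes at 0.048. List counts on that scale were 2 higher and 11 lower for linkers, 2 and 17 for lamina genes, 0 and 13 for other filament genes, and 0 higher for the spermatid envelope. Quantile normalization gave 0.15 for Lmna 1368055_a_at and -0.15 for Lmnb1 1373897_at, and centring on the array median gave 0.073 for the latter. Under both, 4 linkers were lower and 1 other filament gene higher. The filter at the 75th percentile tested fewer probe sets and left 9442 changed (5360 higher, 4082 lower), 4 filament and lamin probe sets higher, 7 lamina genes higher, 1 other filament gene higher and 1 lower, and 0 spermatid envelope genes higher. With no filter, 4 filament and lamin probe sets were lower, and 4 other filament genes were higher and 14 lower.

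Lmnb1 as a gene was -0.97 by the mean of its tested probe sets, -2.18 by 1368811_at and -1.51 by 1368812_at. Lmna minus Lmnb1 was 4.08 with Lmna 1368054_at, 2.71 with Lmnb1 1368811_at and 3.57 by the mean of all probe sets, each past the threshold. Lmna minus Sertoli was 2.15 with 1368054_at and 0.26 by that mean, and Lmnb1 minus Lmnb2 was -0.54 with 1368811_at and 0.49 by that mean. The alternatives by single other probe set for the within-array differences were chosen after seeing the data. Vim minus Nes passed at 1.99 with a pseudocount of 0.5, which compresses low signals, and at 2.06 with dim signals set to the array median, an alternative also chosen after seeing the data. The latter changed no call of the other 8 differences.

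Leaving out each array in turn gave 0.20 to 0.27 for Lmnb1 1373897_at, 0.23 to 0.37 for Lmna minus Lmnb1, and 1 to 2 other filament genes higher (1 without irradiated replicate 3, 4 or 5). Vim stayed between 2.93 and 3.05. Replicate numbers 1 to 5 occur in both groups. Deviations of same-numbered arrays had correlations of -0.09 to 0.10, with 3 of 5 control arrays closest to their own number. The labels name no pairing, and whether same-numbered arrays were handled together was not tested. With the replicate block 15123 probe sets changed, against 15363 in the same arrays without it, with 7 filament and lamin probe sets higher and 2 lower and 1 other filament gene higher. Nes minus the endothelial list was -0.16 in these arrays, where the smallest p that permutation within the block allows is 0.0625. The block does not alter this mean difference, but the setting leaves out control replicates 6 to 10, where Nes read lowest. Why these control arrays differ, and the cause of the other shifts, was not tested. For probe sets below the array median at most bounds are given, which limits Nes, Krt8, Krt18 and parts of Lmna and Lmnb1.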

Other observations

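Within groups, the genes moved only loosely together. Over the 36 pairs of the 9 tested probe sets, the correlation of deviations from the group means (15 arrays, a description that array-wide effects share) was highest for Des with Lmnb1 1368811_at (0.70) and Krt19 with the same probe set (0.68). Vim and Des, which both rose, had 0.16. The 2 tested Lmna probe sets had 0.09, and the 2 tested Lmnb1 probe sets had -0.37.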
